A study of Homo sapiens with 8 samples.

Results

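The histone deacetylase genes HDAC1 to HDAC9 and HDAC11 were described in RD18, a human fusion-negative rhabdomyosarcoma cell line. The 10 genes were taken by symbol from the 22808 symbols of the count table. They are not the whole family, and a further member was not analysed here. The 4 vehicle libraries came from cells given lipofectamine, a lipid transfection reagent, and the 4 treated libraries from cells given the microRNAs miR-449a and miR-340-5p. RNA was taken 60 h after transfection in both groups, and polyadenylated RNA was sequenced. Since no control RNA was given to the vehicle cells, effects of the microRNA pair and of transfecting any RNA cannot be told apart. Every library comes from 1 cell line, and no label says that replicates were separate cultures, so the p-values reflect spread among libraries that may be technical.

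Histone deacetylases remove acetyl groups from lysines of histones and other proteins, and in chromatin this is mostly linked to repression. The class I enzymes HDAC1 and HDAC2 work inside the NuRD, SIN3 and CoREST complexes, HDAC3 works in a complex with nuclear receptor corepressors, and HDAC8 acts outside these complexes and deacetylates the cohesin subunit SMC3. The class IIa proteins HDAC4, HDAC5, HDAC7 and HDAC9 bind MEF2 transcription factors, have little enzymatic activity of their own and leave the nucleus when kinases phosphorylate them. HDAC6, of class IIb, is a cytoplasmic tubulin deacetylase, and HDAC11 is the class IV member. In muscle precursor cells, class I enzymes hold MYOD1 targets in check and class IIa proteins restrain MEF2.

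The 2 microRNAs are shown because a target is recognised mainly through the seed, bases 2 to 8, printed in capitals. The mature sequences are from RefSeq (GRCh38.p14).
miR-449a: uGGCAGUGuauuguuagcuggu
miR-340-5p: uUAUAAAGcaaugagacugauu
The seeds differ, and miR-449a shares its own with miR-34a-5p and miR-449b-5p. A 3′ UTR that pairs with the miR-449a seed holds CACTGCC, and one that pairs with the miR-340-5p seed holds CTTTATA. These words were searched on the transcript strand in the longest 3′ UTR that GENCODE 29 gives a gene. CACTGCC was found in 17.9% and CTTTATA in 19.9% of the 10813 tested genes with a 3′ UTR of at least 50 bases.

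HDAC1, a reported target of miR-449a, held CACTGCC once in its 591-base 3′ UTR, at position 459 (chr1:32333503-32333509, GRCh38, plus strand). HDAC7 held it at chr12:47783078-47783084 (minus strand) and HDAC11 at chr3:13505389-13505395 (plus strand). The 3 stretches are shown together because they carry the same word and their genes did not respond alike. Capitals mark the word.
HDAC1: tgagccaagaaaCACTGCCtgccctctgt
HDAC7: ggacccctcggcCACTGCCcactcgggga
HDAC11: cggcgcccagatCACTGCCttagcagtag
None of the 3 had the adenine after the word that makes the 8-base form CACTGCCA, which 6.04% of the 10813 genes held. The stretch was present in the only annotated HDAC1 3′ UTR of at least 50 bases, in 2 of 5 for HDAC7 and in 3 of 10 for HDAC11.

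The miR-340-5p word was found in HDAC2, HDAC4 and HDAC8. HDAC2 held it once, late in an 8030-base 3′ UTR (position 6904, chr6:113934148-113934154, minus strand), and in 1 of 4 annotated 3′ UTRs. HDAC4 held it at positions 3172 and 3693 of 4929 bases (chr2:239049919-239049925 and chr2:239049398-239049404, minus strand). HDAC8 held it at positions 1194 and 1413 of 4554 bases (chrX:72460755-72460762 and chrX:72460537-72460543, minus strand), in 2 of 29 annotated 3′ UTRs. The first HDAC8 match was the only one of the 8-base form CTTTATAA. Capitals again mark the word.
HDAC2: tccaaaatatgcCTTTATAtctttatgtg
HDAC4, first: agcaagcgagcaCTTTATAtccctttgag
HDAC4, second: cgaccggcatgaCTTTATAttgtatacag
HDAC8, first: aaagctctgggaCTTTATAAactgatcaag
HDAC8, second: taggtgttctgtCTTTATActgaaatatt
HDAC3, HDAC5, HDAC6 and HDAC9 held neither CACTGCC nor CTTTATA in their longest 3′ UTR. A further 7-base match to miR-340-5p, TTTATAA, pairs with bases 2 to 7 and ends in an adenine. Apart from the 8-base form, HDAC9 held it at positions 1929 and 3014 of 6354 bases, and HDAC4 at position 1210. A match is a description of letters and not evidence of binding.

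The libraries held 2567737 to 5569342 counts. The 8 myogenic markers were all detected, with MYOD1 and DES at 204 ± 21.7 and 108 ± 10.6 CPM in vehicle (SD, n = 4), and all 8 were lower in treated cells. The 6 proliferation markers also fell, and their summed level was 2564 to 2847 CPM in vehicle and 95.6 to 185 CPM in treated libraries. MKI67, the usual marker of cycling cells, fell from 762 ± 46.2 to 27.5 ± 9.67 CPM. Of 5 leukocyte markers 3 were in the table, and their sum did not exceed 3.01 CPM in any library, while the 3 endothelial markers in the table did not exceed 3.37 CPM, and none of these 6 genes was at 0 in every library. The 2 tested epithelial markers rose, and the summed epithelial level moved from 38.3 to 49.0 CPM in vehicle to 69.2 to 80.9 CPM in treated libraries. The summed fibroblast level was 106 to 122 CPM in vehicle and 160 to 189 CPM in treated libraries, with 1 of 3 tested markers higher and 1 lower. The part of any of these in the deacetylase results was not tested, and in bulk RNA fewer cells of a type and less RNA per cell cannot be told apart.

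The deacetylase genes split in their response. Of the 9 that passed the filter on low counts, HDAC1, HDAC2, HDAC5 and HDAC8 fell, HDAC6 and HDAC7 rose, and HDAC3, HDAC4 and HDAC11 did not pass (edgeR quasi-likelihood test, adjusted p under 0.05 over all 12366 tested genes). HDAC9 was below the filter. The 6 calls among 9 genes stand beside 67.3% of all tested genes called, 33.4% higher and 34.0% lower, so the share called is near the background. The libraries of the groups did not overlap for 4 of the 9, beside 58.9% of all tested genes. HDAC1 and HDAC5, 2 of the 9, passed with a change of 2-fold or more, as did 25.6% of all tested genes. The median size of change was 0.26 log2 units among the 9 and 0.57 among all tested genes. CPM below is the count per 1000000 counts of a library size scaled by TMM, a method that takes most genes as unchanged. Scaling by library size alone moved the median log2 fold change of the tested genes to 0.14, and 3 deacetylases were then called higher and 2 lower, beside 39.5% and 27.9% of all tested genes. Directions are therefore relative to the bulk of the tested genes.

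**Figure D1:**
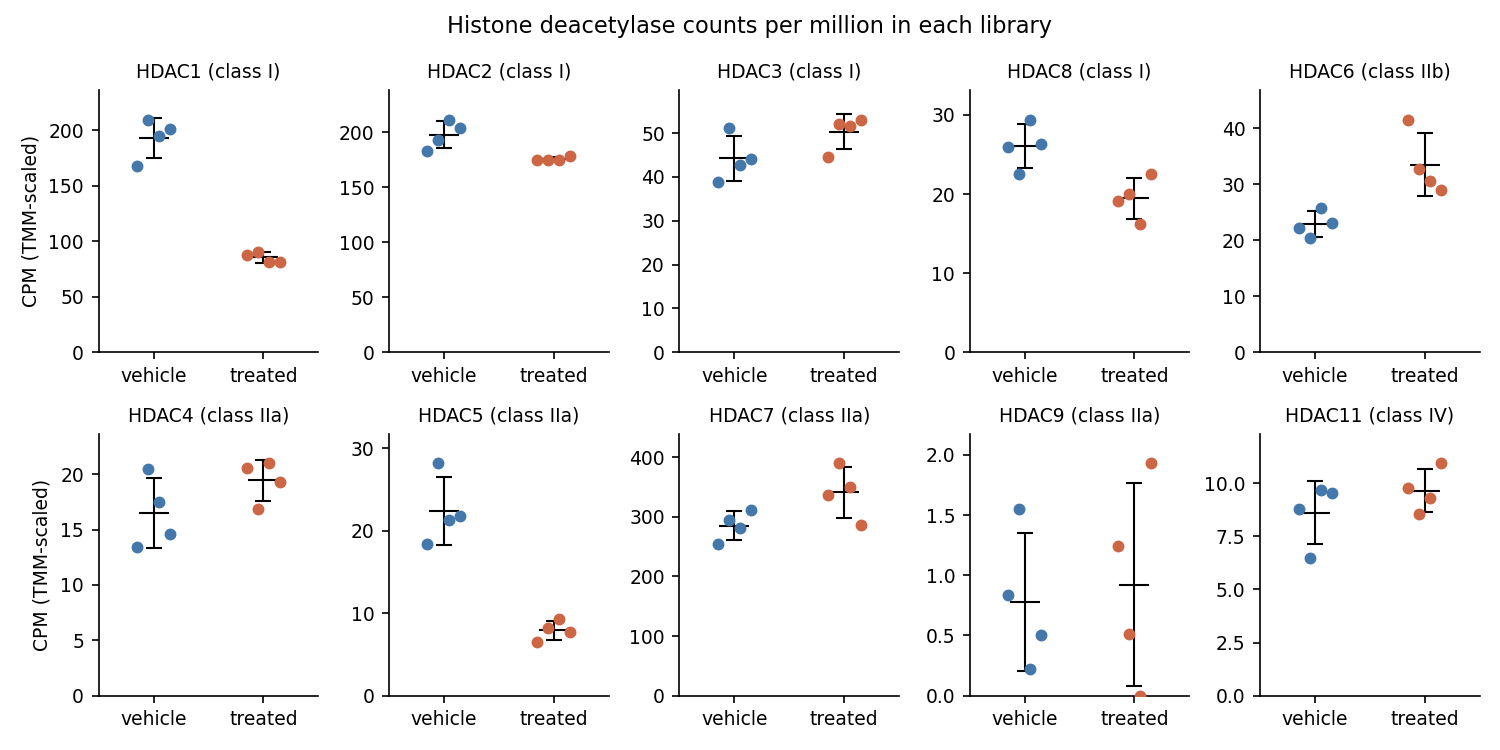
CPM (TMM-scaled, linear axes from 0) of the 10 deacetylase genes in each of the 4 vehicle and 4 treated libraries, with points for libraries and bars for the mean and SD. HDAC1 and HDAC5 have all treated libraries far below the vehicle libraries, HDAC2 lies slightly lower and HDAC6 higher without overlap, and the other genes overlap between groups.

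Among the class I genes, HDAC1 on chromosome 1 (32292086 to 32333635) changed most. It measured 168, 209.7, 195 and 201 CPM in the vehicle libraries and 88.1, 90.4, 81.6 and 81.4 CPM in the treated libraries. The groups were far apart, and the highest treated value lay well under the lowest vehicle value. The log2 fold change was -1.18 (SE 0.07, 95% interval -1.33 to -1.03, adjusted p = 3.31e-21, edgeR), a 2.26-fold fall. The processed pseudogene row HDAC1P2 held at most 3 counts in any library, and no annotated exon of another gene overlapped those of HDAC1.

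HDAC2, the close relative of HDAC1 on chromosome 6 (113933028 to 114011308), held nearly the same count level in both groups. It measured 183, 193, 211 and 204 CPM in vehicle and 175, 174, 175 and 178 CPM in treated libraries. The treated values lay together just below the lowest vehicle value. The fall was 1.13-fold (log2 fold change -0.18, SE 0.06, adjusted p = 0.0137, edgeR). This call was lost when libraries were scaled by size alone (-0.04, adjusted p = 0.633), with upper-quartile scaling (-0.13, adjusted p = 0.0760) and without vehicle replicate 3 (-0.15, adjusted p = 0.0655).

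HDAC3, on chromosome 5 (141620876 to 141636870), measured 38.9, 51.3, 42.7 and 44.2 CPM in vehicle and 44.6, 52.2, 51.6 and 53.1 CPM in treated libraries. The groups overlapped, and the difference of 0.17 log2 units (95% interval -0.04 to 0.38) did not pass (adjusted p = 0.155, edgeR). It passed as higher when libraries were scaled by size alone (0.31, adjusted p = 0.0106). An antisense gene shares 9.20% of the annotated HDAC3 exon bases, and the strand setting of the counting is not given in the sources used here.

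HDAC8, on the X chromosome (72329516 to 72573199), measured 25.9, 22.5, 29.4 and 26.4 CPM in vehicle and 19.17, 19.96, 16.2 and 22.5 CPM in treated libraries. The highest treated library met the lowest vehicle library, and the other values were separate. HDAC8 fell 1.34-fold (log2 fold change -0.42, SE 0.14, adjusted p = 0.00841, edgeR). Scaling by library size alone ended the call (-0.28, adjusted p = 0.0832). Another gene on the same strand shares 5.19% of the annotated HDAC8 exon bases. How reads there were counted is not given in the sources used here.

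The class IIa genes moved apart as well. HDAC5, on chromosome 17 (44076746 to 44123702), measured 18.4, 28.2, 21.3 and 21.9 CPM in vehicle and 6.57, 8.19, 9.30 and 7.72 CPM in treated libraries. The lowest vehicle library was well above the highest treated library. HDAC5 fell 2.89-fold (log2 fold change -1.53, SE 0.18, 95% interval -1.90 to -1.17, adjusted p = 8.96e-11, edgeR), the largest change among the 9 tested deacetylases. It rested on 335 counts in all vehicle and 136 in all treated libraries, and no annotated exon of another gene overlapped it.

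HDAC7, on chromosome 12 (47782722 to 47833132), had the most counts of the 10 genes. It measured 254, 295, 282 and 310.5 CPM in vehicle and 336, 390.0, 350.1 and 287 CPM in treated libraries. Treated replicate 4 lay inside the vehicle range and the other 3 treated libraries lay above it. HDAC7 rose 1.20-fold (log2 fold change 0.26, SE 0.07, adjusted p = 0.00108, edgeR). Exons of 3 other genes on the opposite strand cover 11.2% of its exon bases. Of the shared bases, 963 belong to the antisense gene AC004466.1, whose counts were not analysed here. SLC48A1, a haem transporter gene that shares 32 bases, held at most 16 counts in any library.

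HDAC4, on chromosome 2 (239048168 to 239401654), measured 13.4, 20.5, 17.5 and 14.6 CPM in vehicle and 20.6, 16.9, 21.0 and 19.3 CPM in treated libraries. The groups overlapped, and the difference of 0.21 log2 units (95% interval -0.11 to 0.53) did not pass (adjusted p = 0.251, edgeR). HDAC9, on chromosome 7 (18086949 to 19002416), had 2, 6, 1 and 2 counts in vehicle and 7, 3, 0 and 6 counts in treated libraries. These counts are too few for a fold change, and the 0 in treated replicate 3 allows up to 1.03 CPM by counting error alone.

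HDAC6, the cytoplasmic enzyme encoded on the X chromosome (48801377 to 48824982), measured 22.2, 20.5, 25.8 and 23.1 CPM in vehicle and 41.5, 32.8, 30.6 and 28.97 CPM in treated libraries. All treated libraries were above all vehicle libraries, and treated replicate 1 stood highest. HDAC6 rose 1.48-fold (log2 fold change 0.56, SE 0.13, adjusted p = 0.000221, edgeR), and still passed without treated replicate 1 (0.43, adjusted p = 0.00840). HDAC11, on chromosome 3 (13479724 to 13506424), measured 8.79, 6.47, 9.66 and 9.55 CPM in vehicle and 9.76, 8.53, 9.30 and 10.9 CPM in treated libraries. These groups overlapped, and the difference of 0.14 log2 units had a 95% interval from -0.29 to 0.58 (adjusted p = 0.568, edgeR). It rested on 127 counts over all vehicle and 166 over all treated libraries. The antisense row HDAC11-AS1 held 3 counts in treated replicate 1 and none elsewhere.

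**Figure D2:**
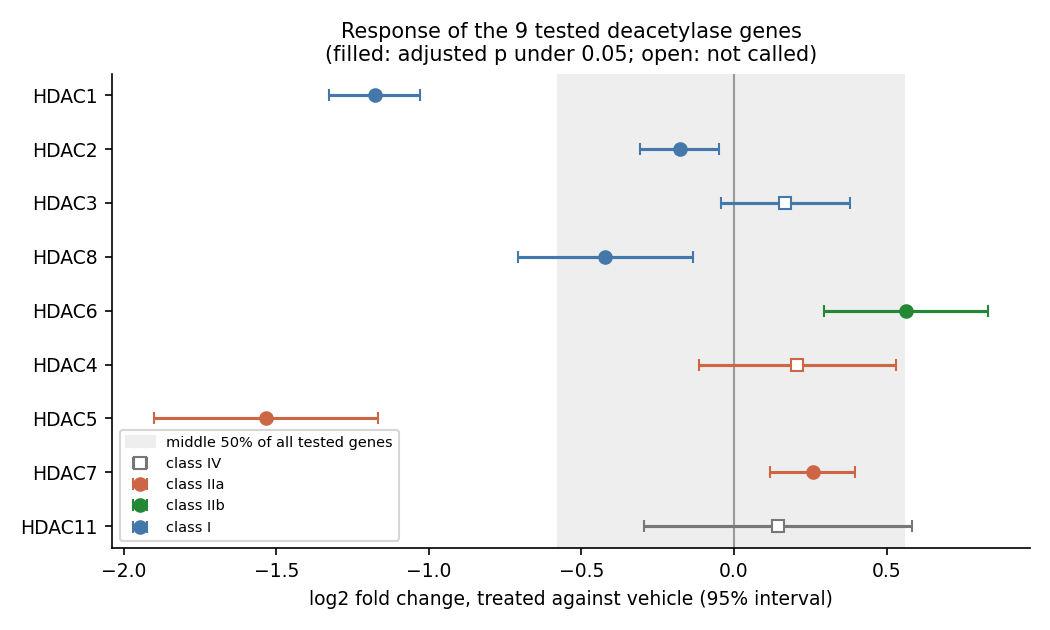
Log2 fold change of the 9 tested deacetylase genes, treated against vehicle, with 95% intervals; colours give the class, filled points passed the test, and the grey band spans the middle 50% of all tested genes (-0.58 to 0.56). HDAC1 and HDAC5 lie below the band, HDAC6 lies at its upper edge, and the other points lie inside it.

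Levels of different genes were compared only per kilobase of annotated exon, as CPM divided by the length of the union of exons. In vehicle libraries HDAC1 had the highest level, 48.8 ± 4.59 CPM per kilobase (SD, n = 4), followed by HDAC7 at 28.7 ± 2.43, HDAC2 at 12.8 ± 0.811 and HDAC3 at 9.56 ± 1.12, with no overlap between neighbours. HDAC5, HDAC6, HDAC11, HDAC4 and HDAC8 followed between 2.95 and 1.13, and HDAC9 was at 0.0463 CPM per kilobase. Among these lower genes HDAC5 overlapped HDAC6, HDAC11 overlapped HDAC4, and HDAC4 overlapped HDAC8.

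In treated libraries HDAC7 came first at 34.3 ± 4.29 CPM per kilobase and HDAC1 second at 21.5 ± 1.15, without overlap. HDAC2 (11.3 ± 0.111) and HDAC3 (10.9 ± 0.848) then overlapped, and HDAC5 dropped from the fifth to the eighth place, overlapping HDAC8. Of the summed level per kilobase over the 10 genes, HDAC1 made up 43.9%, 45.8%, 44.6% and 44.6% in vehicle and 25.8%, 24.6%, 23.8% and 25.4% in treated libraries. HDAC7 made up 26.5%, 25.7%, 25.8% and 27.4% in vehicle and 39.3%, 42.4%, 40.8% and 35.8% in treated libraries. The exchange of first place between HDAC1 and HDAC7 was also found with the length of the longest transcript, where HDAC2 and HDAC3 changed places and overlapped in vehicle. The order of the lower genes did depend on the length used. With the longest transcript HDAC8 ranked 5 in vehicle and 6 in treated libraries, and HDAC5 ranked 7 and 9.

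To ask whether relatives responded differently, the ratio of their counts was taken within each library, which needs no scaling between libraries. Gene length is the same in both groups, so only the change of a ratio is read here. The 6 pairs were compared by an exact two-sided permutation test over the 70 assignments of libraries to groups, where the smallest possible p is 0.0286. The ratio of HDAC1 to HDAC2 was 0.918, 1.09, 0.921 and 0.988 in vehicle and 0.504, 0.519, 0.468 and 0.458 in treated libraries. It thus dropped 2.01-fold with no overlap (p = 0.0286, adjusted over the 6 pairs 0.0429, exact permutation test). The ratio of HDAC1 to HDAC3 dropped 2.57-fold, from 4.37 ± 0.226 to 1.70 ± 0.199 (SD, n = 4, exact permutation p = 0.0286, adjusted 0.0429). HDAC2 to HDAC3 went from 4.49 ± 0.516 to 3.49 ± 0.284, a difference of -0.36 log2 units whose groups overlapped (exact permutation p = 0.0571, adjusted 0.0686).

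In class IIa, HDAC5 separated from both tested relatives. The ratio of HDAC4 to HDAC5 was 0.730, 0.726, 0.822 and 0.669 in vehicle and 3.11, 2.05, 2.24 and 2.47 in treated libraries, a 3.32-fold rise without overlap (exact permutation p = 0.0286, adjusted 0.0429). HDAC5 to HDAC7 dropped 3.32-fold, from 0.0791 ± 0.0116 to 0.0239 ± 0.00395 (SD, n = 4, exact permutation p = 0.0286, adjusted 0.0429). HDAC4 to HDAC7 was 0.0583 ± 0.00990 in vehicle and 0.0583 ± 0.0104 in treated libraries (exact permutation p = 0.971), with groups that overlapped.

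**Figure D3:**
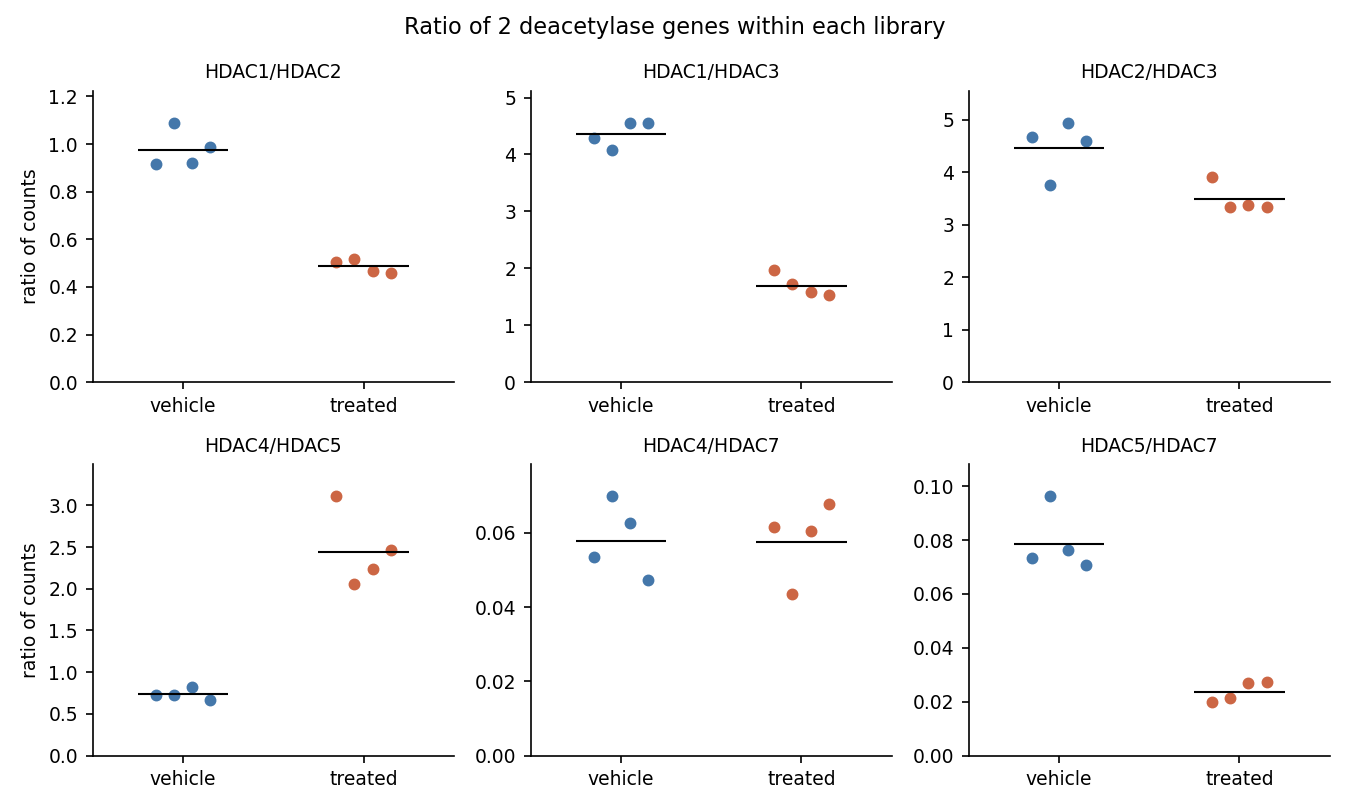
Ratio of the counts of 2 deacetylase genes within each library (linear axes from 0), with points for libraries and a bar for the geometric mean of each group of 4. The ratios with HDAC1 or HDAC5 as one partner are separate between groups, while HDAC2/HDAC3 and HDAC4/HDAC7 overlap.

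Members that held the same word did not all move in 1 direction. Of the 3 genes with CACTGCC, HDAC1 fell, HDAC7 rose and HDAC11 did not pass. Of the 3 with CTTTATA, HDAC2 and HDAC8 fell by less than HDAC1 and HDAC4 did not pass. Apart from HDAC1, these genes held the word in only some of their annotated 3′ UTRs. Which 3′ UTRs these cells used was not tested. HDAC5, with the largest fall, held neither word in its longest 3′ UTR. Across the 1933 tested genes with CACTGCC the median change was -0.13 log2 units, against 0.05 without it, and 41.1% were called lower against 32.2% without it. The change of HDAC1 was larger than most of these, since 13.8% of the genes with the word had a lower log2 fold change. For HDAC11 that share was 64.1% and for HDAC7 69.1%. A fall the size of that of HDAC1 was not particular to genes with the word. The lowest 10% of all tested genes ended at -1.18, and the lowest 9% of genes without the word at -1.19. With CTTTATA the median over 2152 genes was 0.03, against 0.02 without it, and the shares called lower were 34.0% and 33.7%. These shares are given without a test, and 3′ UTR length and base composition were not matched between genes with and without a word.

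**Figure D4:**
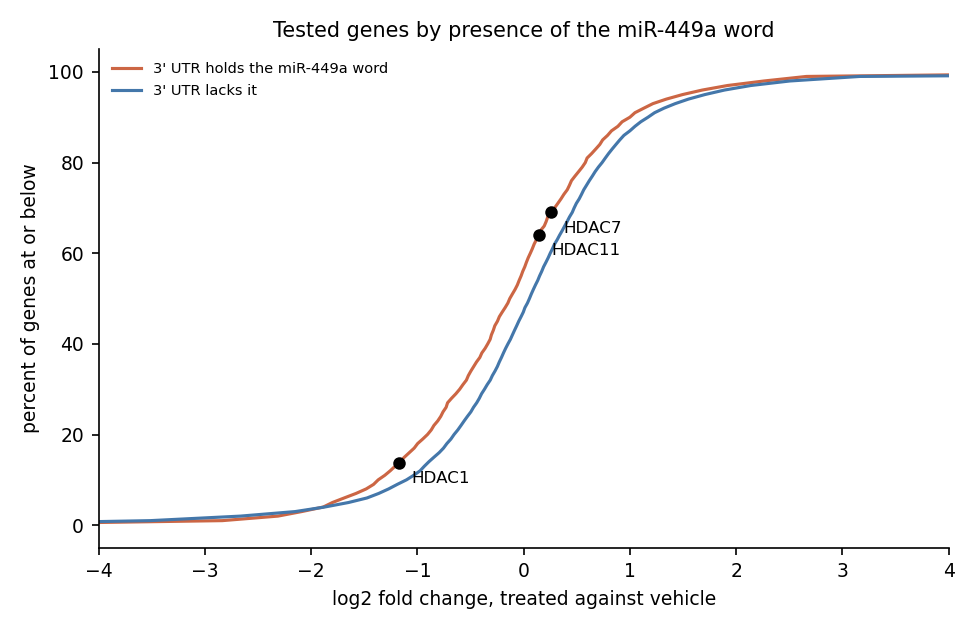
Cumulative percent of tested genes by log2 fold change, treated against vehicle, for genes with and without the miR-449a word in the 3′ UTR; points mark the 3 deacetylase genes with the word. HDAC1 lies in the lower tail, at 13.8%, and HDAC11 and HDAC7 lie in the upper part, at 64.1% and 69.1%.

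The partners of the deacetylases were described next, from 12 lists that together held 87 tested genes. Of these, 22 rose and 36 fell, with a median of -0.14 log2 units, beside 33.4% higher and 34.0% lower among all tested genes. Scaled by library size alone, 28 were higher and 27 lower, beside 39.5% and 27.9% of all tested genes under that scaling. These shares of all tested genes are the background for the counts of every list below. The fold changes below are on the TMM scale, with CPM as mean ± SD of 4 libraries and calls by edgeR.

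NuRD, the complex that joins HDAC1 and HDAC2 to a chromatin remodelling ATPase, had lower levels of many subunits. Of 11 tested partners, 8 fell and none rose (median -0.47), and 6 fell when scaled by library size alone. RBBP7, a histone-binding subunit, fell 2.65-fold, from 119.7 ± 5.597 to 45.2 ± 2.47 CPM (adjusted p = 1.45e-21). Its relative RBBP4 fell 1.60-fold, from 266 ± 11.1 to 168 ± 8.94 CPM. Both RBBP genes also serve other chromatin complexes and were counted only in the NuRD list. MBD3, the subunit that distinguishes one form of NuRD, fell 2.67-fold, from 32.9 ± 3.36 to 12.2 ± 2.54 CPM. These 3 genes were named for their small adjusted p, and their groups did not overlap, beside 58.9% of all tested genes without overlap. Among the other tested partners, CHD3, MTA1, MTA3 and MBD2 overlapped between groups.

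The SIN3 and CoREST partners moved both ways. Of 14 tested SIN3 partners, a list without RBBP4 and RBBP7, 5 rose, 3 fell and 6 did not pass (median 0.02). With library size alone, 6 of them rose and 2 fell. ARID4B rose 1.78-fold and SUDS3, a subunit that binds SIN3 and HDAC1, 1.46-fold, while SAP30, a bridging subunit, fell 1.96-fold from 19.1 ± 3.87 to 9.73 ± 2.17 CPM. Of 10 tested CoREST partners, 4 rose and 5 fell (median -0.20), and with library size alone 4 rose and 4 fell. ZMYM2, a zinc finger protein found with CoREST, rose 2.32-fold from 27.1 ± 3.29 to 63.4 ± 6.18 CPM, and PHF21A, which reads unmethylated histone H3, rose 1.66-fold. GSE1 fell 2.57-fold, from 97.5 ± 8.54 to 38.1 ± 1.85 CPM (adjusted p = 2.08e-19).

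In the corepressor complex that works with HDAC3, the paralogous subunits TBL1X and TBL1XR1 moved in opposite directions. TBL1X rose 1.95-fold, from 80.0 ± 6.34 to 156 ± 7.56 CPM (adjusted p = 7.49e-17). TBL1XR1 fell 2.61-fold, from 113 ± 3.08 to 43.6 ± 5.26 CPM (adjusted p = 1.32e-20). In the mitotic deacetylase complex, another home of HDAC1 and HDAC2, DNTTIP1 rose 2.30-fold and TRERF1 fell 1.59-fold. ELMSAN1, its scaffold, measured 44.5 ± 5.77 and 43.5 ± 3.46 CPM and did not pass.

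Among the partners of class IIa proteins, MEF2C, a muscle transcription factor that they restrain, fell 2.51-fold from 123 ± 17.8 to 49.4 ± 4.14 CPM (adjusted p = 3.81e-19). MEF2A measured 75.1 ± 3.60 and 75.2 ± 5.37 CPM and MEF2D 53.3 ± 6.81 and 47.5 ± 2.24 CPM, and neither passed. Of 9 tested kinases that can drive nuclear export of class IIa proteins, 4 fell and none rose (median -0.41). Among all tested genes, 34.0% were lower and 33.4% higher. Scaled by library size alone, 4 kinases fell and 1 rose, beside 27.9% and 39.5% of all tested genes. CAMK4 fell 2.23-fold, PRKD3 1.56-fold and CAMK2D 1.52-fold. Of 6 tested genes of the YWHA family, whose proteins hold phosphorylated class IIa members in the cytoplasm, 4 fell and 1 rose (median -0.21), and with library size alone 2 fell and 2 rose. YWHAZ fell 1.64-fold and YWHAH 1.39-fold, and YWHAG rose 1.43-fold.

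The sirtuins, deacetylases that use NAD rather than zinc, also moved both ways. Of 7 tested, 3 rose and 2 fell (median 0.22), beside 33.4% higher and 34.0% lower among all tested genes. With library size alone 3 rose and 1 fell, beside 39.5% and 27.9% of all tested genes. SIRT7, a nucleolar member, rose 3.08-fold, from 13.8 ± 1.41 to 42.8 ± 2.85 CPM (adjusted p = 4.74e-16). SIRT5, a mitochondrial enzyme that removes succinyl and related groups, rose 2.39-fold, and SIRT2, which shares tubulin as a substrate with HDAC6, fell 1.48-fold.

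Of 11 tested lysine acetyltransferases, which oppose the deacetylases, 4 rose and 3 fell (median 0.03). Among all tested genes, 33.4% were higher and 34.0% lower. With library size alone 4 rose and 2 fell, beside 39.5% and 27.9% of all tested genes. NCOA3, a nuclear receptor coactivator, rose 3.48-fold, from 24.7 ± 3.60 to 87.4 ± 4.17 CPM (adjusted p = 1.04e-22). Its relative NCOA1 fell 1.70-fold, from 213 ± 14.3 to 125 ± 5.63 CPM. HAT1, which acetylates newly made histones, fell 1.95-fold. Among BET proteins, which read acetylated lysines, BRD3 fell 1.92-fold, from 270.2 ± 8.59 to 140.1 ± 13.7 CPM, and BRD2 rose 1.28-fold.

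Finally, 4 genes commonly reported to rise when deacetylases are inhibited did not move as 1 group, with 2 higher, 1 lower and 1 not passing, and 1 to 3 higher over the alternatives run. TXNIP, a thioredoxin-binding protein gene, rose 1.45-fold, from 35.3 ± 4.62 to 49.9 ± 7.40 CPM. H1F0, which encodes the linker histone H1.0, fell 1.54-fold, from 210.2 ± 15.3 to 136 ± 10.2 CPM. GSN, which encodes the actin-severing protein gelsolin, rose 1.13-fold (adjusted p = 0.0249), a call that DESeq2 did not make (adjusted p = 0.0502) and that edgeR did not make without vehicle replicates 1 (0.0999), 3 (0.0626) or 4 (0.110) or treated replicate 2 (0.161). The remaining gene of the list, CDKN1A, measured 92.8 ± 4.48 and 102 ± 7.18 CPM and did not pass (adjusted p = 0.152, edgeR). Its groups did not overlap, beside 58.9% of all tested genes without overlap. With library size alone, 3 genes of the list were higher and 1 was lower.

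**Figure D5:**
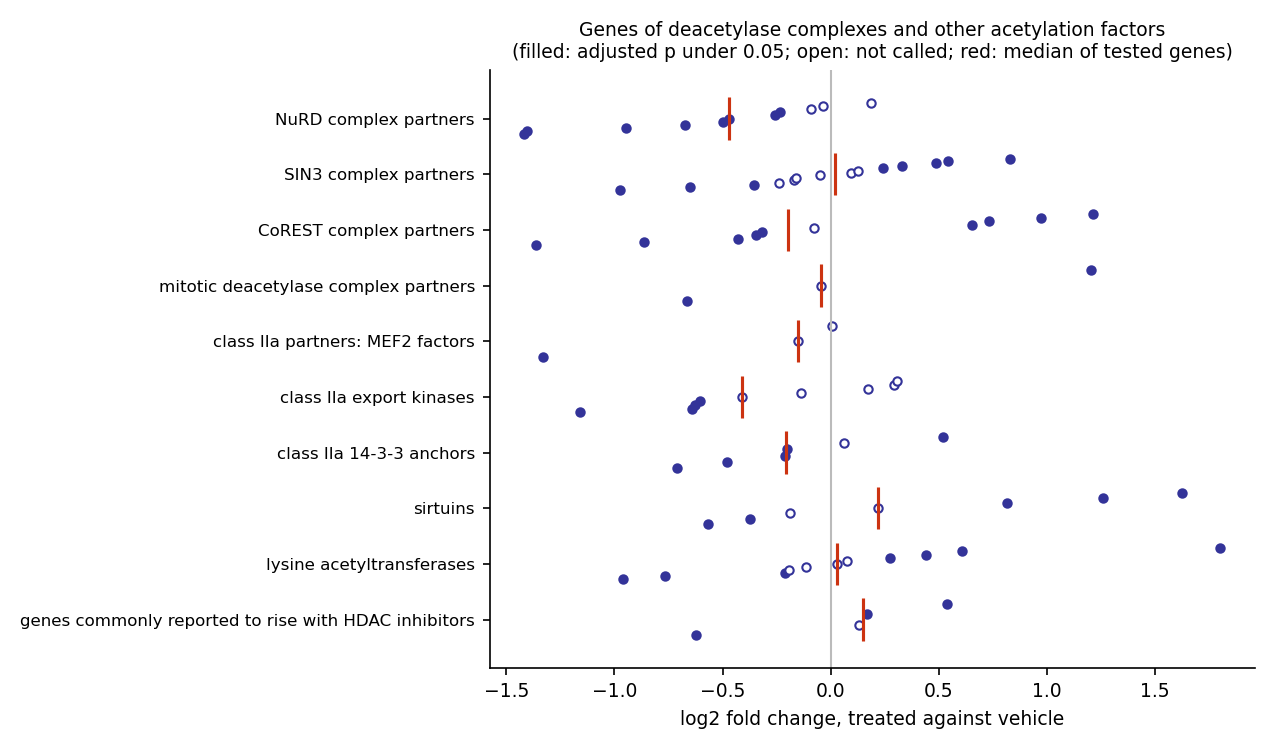
Log2 fold change of each tested gene in 10 of the 12 partner lists, treated against vehicle; filled points passed the test, open points did not, and red bars are list medians. NuRD partners lie at or below 0 apart from 1 open point, while SIN3, CoREST, sirtuin and acetyltransferase genes lie on both sides.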

How the data were processed

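The table deposited by the authors gives raw read counts by gene symbol, and its columns were matched to samples by the library code in the labels. GRCh38, HTSeq 0.5.3p3, TopHat2 2.0.13, DESeq2 and SAMtools 0.1.19.24 appear, without roles, in the submitters' processing notes. Annotation and strand setting: not given in the sources used here. Genes passing edgeR's filterByExpr (minimum count 10, minimum total 15; 12366 genes, 99.5% of counts) entered a quasi-likelihood test on group alone, with TMM scaling and robust fitting (edgeR 4.0.16, R 4.3.3), with Benjamini-Hochberg adjustment over all tested genes. SEs were derived from each log2 fold change and its F statistic. Ratios used log2(count + 0.5). Replicate pairs gave a chi-square per gene of at least 2.21, above the value near 1 of repeat draws from 1 library, so the 8 libraries were kept separate. Intervals and floors cover counting error or library spread only. Alternatives were DESeq2 1.42.0, limma 3.58.1 (voom), a replicate block, leaving out each library, and other filters and scalings. Symbols were matched to GENCODE 29 by name (17610) or another symbol (523), and 4675 did not match. The text names the 10 deacetylases, up to 3 genes per partner list with the smallest adjusted p and a mean of at least 1 CPM, and checks, and some of these genes are not reported here. CDKN1A was added after its values were seen. The members and lists were chosen with earlier results of these data known.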

Additional observations from a re-analysis of the deposited data

Results flagged for a closer look

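In groups of 4 libraries, a library was singled out when its gap to the nearest of the others was above Dixon's 95% limit as a share of the group's range, which chance gives in about 1 of 20 groups. Of 98 groups checked, 2 exceeded it. HDAC2 in treated replicate 4 measured 178 CPM beside 174 to 175 CPM in the other 3 treated libraries, a spread that is narrow in all. BRD3 in treated replicate 4 measured 119.7 CPM beside 144 to 149 CPM.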

How the results depend on the processing

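HDAC1, HDAC5, HDAC6 and HDAC7 kept their direction and their call under every alternative run. With library size as the only scaling, 2 deacetylases were called lower in place of 4. Leaving out 1 library at a time gave 2 higher and 3 to 4 lower. After group means were removed, same-numbered libraries correlated weakly (0.0135 to 0.0555), yet 3 of 4 vehicle libraries were closest to their own number. Whether the replicate numbers mark shared cultures or days was not tested and stays unknown. With the replicate block the deacetylase counts were unchanged at 2 and 4. For the ratios, an exact paired sign-flip permutation test cannot go below p = 0.125, which was its value at -1.01 for HDAC1/HDAC2, -1.36 for HDAC1/HDAC3, 1.73 for HDAC4/HDAC5 and -1.73 for HDAC5/HDAC7. Without single libraries, HDAC2/HDAC3 ranged from -0.44 to -0.31 and passed without vehicle replicate 2 (adjusted p = 0.0343, exact permutation test), and HDAC4/HDAC7 ranged from -0.10 to 0.13. ELMSAN1 and MEF2A, both near 0, changed sign without passing. ELMSAN1 was 0.092 with library size alone, 0.0055 with upper-quartile scaling and -0.12 to 0.038 without single libraries, and MEF2A was -0.000824 with the block and -0.028 to 0.053 without single libraries. The cause was not tested. Depth limits mainly HDAC9 and HDAC11. Levels per kilobase depend on the length used.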
